A study of Mus musculus with 4 samples.

Results

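The proximal kinases of antigen receptor signaling were followed in λ-MYC lymphoma cells as a set of 9 genes chosen by name: the Src family genes Lyn, Blk, Lck, Fyn and Fgr, the Syk family genes Syk and Zap70, the Tec family gene Btk, and Csk, which encodes the kinase that holds Src family members in check. These are 9 of the 34866 genes in the deposited table, and all 9 were found by their GRCm38 gene symbols. Cells came from the spleens of 2 λ-MYC Tom+/ki mice, each with an IgM+ Tom+ tumor (tumors #1 and #2), and were sorted by FACS into B220+ IgM+ Tom+ and B220+ IgM+ Tom- cells. RNA-seq of both fractions of both mice makes 4 libraries. All 4 libraries share the same genotype, namely the λ-MYC+/TG transgene (a human MYC gene under immunoglobulin λ regulatory sequences), 1 Cre knock-in allele and 1 R26tdTom+/ki reporter allele. Tomato (Tom) therefore marks cells in which Cre has been active, or that descend from such cells, and not cells that express Cre at present. Each tumor is 1 mouse, no library was repeated, and the ages of the 2 mice are not given in the sources used here.

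Engagement of the B cell receptor (BCR) brings Src family kinases to the paired tyrosines in the tails of CD79A and CD79B. In normal B cells Lyn is the most studied of them, with Blk and Fyn alongside, whereas Lck serves the T cell receptor and Fgr is best known in myeloid cells. Phosphorylated tails recruit Syk, whose relative ZAP-70 has the same task in T and NK cells, and Syk then allows Btk to activate phospholipase Cγ2. Csk phosphorylates a tyrosine close to the end of Src family kinases, which closes the enzyme, and the phosphatase CD45 reverses this.

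The ends of the coding sequences show what groups the 5 Src family members and where Csk acts. The first 30 coding bases of the principal GENCODE M21 transcript are given 5′ to 3′, with capitals on a glycine codon at the second position, which is the residue that receives the myristoyl anchor, and on any cysteine codon, the possible sites of palmitoylation.
Lyn: atgGGATGTattaaatcaaaaaggaaagac
Blk: atgGGGctgctgagcagcaagaggcaggtc
Lck: atgGGCTGTgtcTGCagctcaaaccctgaa
Fyn: atgGGCTGTgtgcaaTGTaaggataaagaa
Fgr: atgGGCTGTgtgttcTGCaagaagttggag
All 5 genes have the glycine codon. Blk has 0 cysteine codons in this stretch, Lyn has 1, and Lck, Fyn and Fgr have 2 each. On GRCm38 they lie at chr4:3738730-3738759 (plus strand) for Lyn, chr14:63387797-63387826 (minus) for Blk, chr4:129558156-129558185 (minus) for Lck, chr10:39511750-39511779 (plus) for Fyn and chr4:132986163-132986192 (plus) for Fgr, each within 1 coding exon.

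The last 30 coding bases, stop codon included, are shown with capitals on the final tyrosine codon, the target of Csk.
Lyn: acagaagggcagTATcagcagcaaccgtag
Blk: acggagggccaaTATgagctgcagccctag
Lck: acagagggccagTACcagccccagccttga
Fyn: ccccagTATcagcccggtgaaaacctgtga
Fgr: ccacagTACcagcctggagaccagacatag
Counted back from the last amino acid codon, the tyrosine is codon 5 in Lyn, Blk and Lck and codon 7 in Fyn and Fgr. These stretches lie in the final coding exons, on GRCm38 at chr4:3789915-3789944 (plus strand) for Lyn, chr14:63373392-63373421 (minus) for Blk, chr4:129548798-129548827 (minus) for Lck, chr10:39563943-39563972 (plus) for Fyn and chr4:133000314-133000343 (plus) for Fgr. The whole genes span chr4:3678115-3813122 for Lyn (ENSMUSG00000042228), chr14:63372836-63417037 for Blk (ENSMUSG00000014453), chr4:129548344-129573641 for Lck (ENSMUSG00000000409), chr10:39368855-39565381 for Fyn (ENSMUSG00000019843) and chr4:132974095-133001910 for Fgr (ENSMUSG00000028874). Syk (ENSMUSG00000021457) lies on the plus strand at chr13:52583173-52648792, and Zap70 (ENSMUSG00000026117) on the plus strand at chr1:36761798-36782818. Btk (ENSMUSG00000031264) lies on the minus strand at chrX:134542336-134583570, and Csk (ENSMUSG00000032312) on the minus strand at chr9:57626646-57653631. The coding sequences of the 9 principal transcripts run from 450 codons for Csk to 659 for Btk.

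Levels are in TPM (transcripts of a gene per 1000000 transcripts), which the authors computed with Salmon. TPM is scaled by transcript length, so levels of different genes can be set side by side, but it keeps no read number, so sequencing depth cannot be known and values carry no counting interval. Csk was the most abundant of the 9 kinases in all 4 libraries. Its level was 254 (Tom-) and 229.6 TPM (Tom+) in tumor #1, and 232 (Tom-) and 236 TPM (Tom+) in tumor #2. The highest value was 1.11 times the lowest, the narrowest span of the set. Csk took between 49.5% and 56.8% of the summed TPM of the 9 genes.

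By mean TPM over the 4 libraries the order was Csk (238), Btk (53.5), Syk (49.2), Lyn (38.1), Blk (33.7), Fyn (26.4), Lck (8.40), Zap70 (2.02) and Fgr (1.44). Only the steps from Csk to Btk and from Lck to Zap70 had ranges that did not overlap. Zap70 was above Fgr in all 4 libraries although their ranges overlapped. Each neighboring pair from Btk down to Lck stood in this order in 2 of the 4 libraries and in the opposite order in the other 2, and that split ran between the mice.

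**Figure D1:**
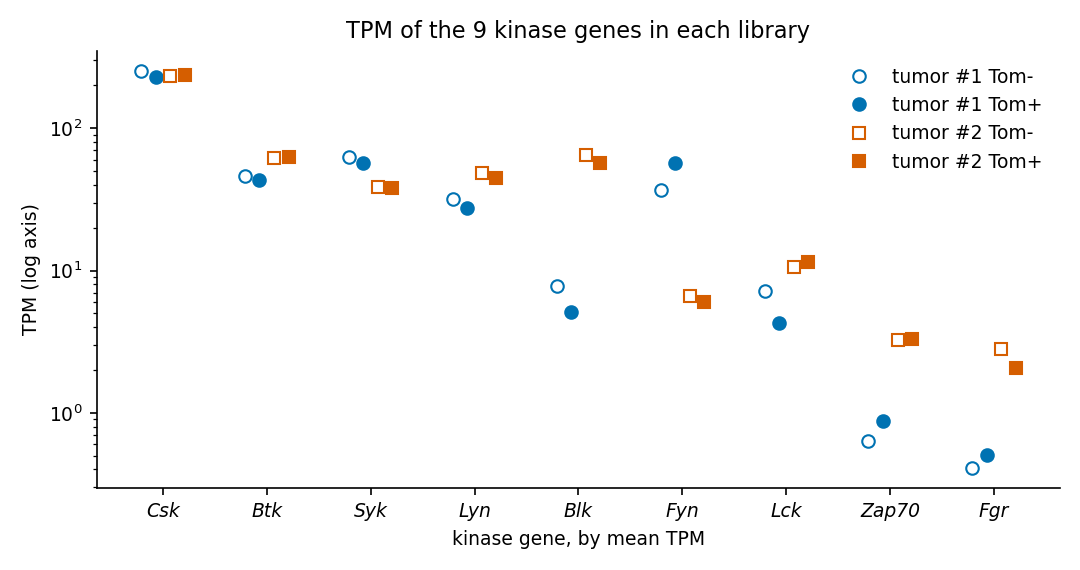
TPM (log axis) of the 9 kinase genes, ordered by mean TPM, with 1 point per library (circles, tumor #1; squares, tumor #2; open, Tom-; filled, Tom+). Csk stays between 229.6 and 254 TPM in all libraries, while Blk and Fyn separate the tumors in opposite directions.

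The members that differed most between the mice, Blk and Fyn, both belong to the Src family. Lyn, which starts BCR signaling and also feeds its inhibitory arm, stood at 31.6 (Tom-) and 27.6 TPM (Tom+) in tumor #1, against 48.1 (Tom-) and 44.9 TPM (Tom+) in tumor #2. Both libraries of tumor #2 were the higher ones, by a ratio of 1.52 in Tom- cells and 1.63 in Tom+ cells. Gm26857, on the opposite strand, overlaps 6.09% of the exon bases of Lyn, and reads of the 2 genes cannot be told apart there if strand was not used.

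Blk, a kinase largely restricted to the B lineage, stood at 7.78 (Tom-) and 5.15 TPM (Tom+) in tumor #1, against 65.3 (Tom-) and 56.6 TPM (Tom+) in tumor #2. It was 8.39 times as high in tumor #2 as in tumor #1 among Tom- cells and 11.0 times as high among Tom+ cells. On the log2(TPM + 1) scale, where the added 1 shrinks the changes of low genes, the difference was 2.92 in the Tom- pair and 3.23 in the Tom+ pair.

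Fyn, which acts in both B and T cells, went the other way. Tumor #1 had 36.7 (Tom-) and 56.5 TPM (Tom+), whereas tumor #2 had 6.59 (Tom-) and 6.01 TPM (Tom+). The ratio of tumor #1 over tumor #2 was 5.57 in Tom- cells and 9.41 in Tom+ cells, and the log2 differences of tumor #2 minus tumor #1 were -2.31 and -3.04.

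Lck was detected at a low level in all libraries, with 7.21 (Tom-) and 4.25 TPM (Tom+) in tumor #1, against 10.6 (Tom-) and 11.5 TPM (Tom+) in tumor #2. Its difference between the tumors was uneven, with a log2 value of 0.50 in Tom- cells and 1.26 in Tom+ cells. Fgr was near the floor of the table, with 0.410 (Tom-) and 0.505 TPM (Tom+) in tumor #1, against 2.80 (Tom-) and 2.05 TPM (Tom+) in tumor #2. Fgr and Zap70 reached 1 TPM in the libraries of tumor #2 only, so they entered the test through the tumor in which they were high, and their place among the tested genes fixed the direction of that difference.

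The 5 Src family genes summed to 83.7 (Tom-) and 94.1 TPM (Tom+) in tumor #1, against 133 (Tom-) and 121 TPM (Tom+) in tumor #2. Within a library the share of each gene does not depend on how libraries are scaled against each other. Fyn made up 43.8% (Tom-) and 60.1% (Tom+) of this sum in tumor #1, against 4.94% and 4.96% in tumor #2. Blk made up 9.30% and 5.47% in tumor #1, against 49.0% and 46.7% in tumor #2. Lyn held a middle share in every library, from 29.4% to 37.8%. The leading Src family transcript was thus Fyn in both libraries of tumor #1 and Blk in both libraries of tumor #2, with Lyn next in each. The ratio of Csk to the Src family sum was 3.03 (Tom-) and 2.44 (Tom+) in tumor #1, against 1.74 (Tom-) and 1.94 (Tom+) in tumor #2.

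**Figure D2:**
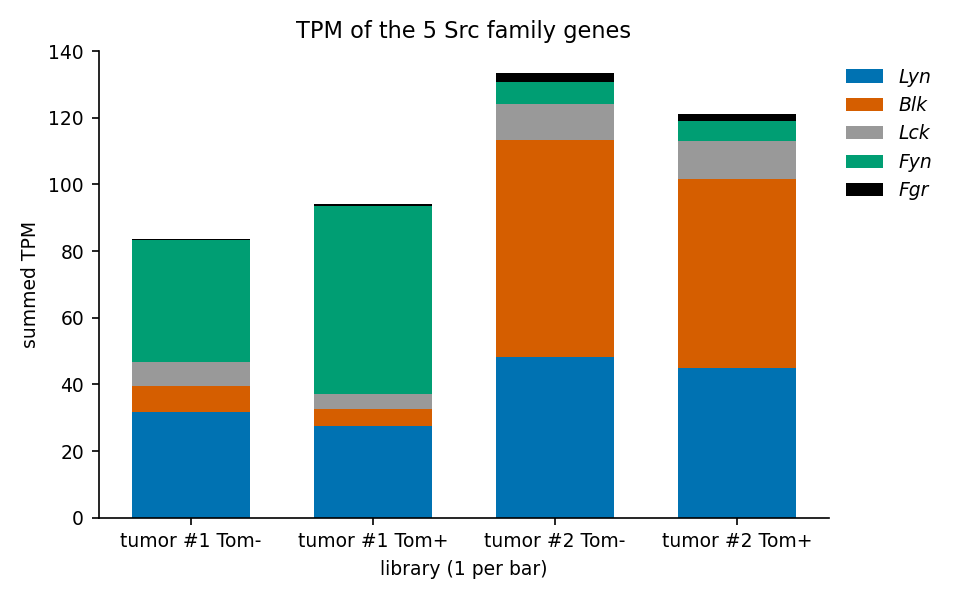
Summed TPM of Lyn, Blk, Lck, Fyn and Fgr, 1 bar per library, stacked by gene. Fyn fills 43.8% and 60.1% of the bars of tumor #1, and Blk fills 49.0% and 46.7% of the bars of tumor #2.

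Syk and Zap70 also differed between the mice in opposite directions, although Syk stayed far above its relative. Syk stood at 62.7 (Tom-) and 57.3 TPM (Tom+) in tumor #1, against 38.6 (Tom-) and 38.1 TPM (Tom+) in tumor #2. Both libraries of tumor #1 were higher, with log2 differences of tumor #2 minus tumor #1 of -0.69 and -0.58. Zap70 stood at 0.635 (Tom-) and 0.872 TPM (Tom+) in tumor #1, against 3.27 (Tom-) and 3.29 TPM (Tom+) in tumor #2. All 4 values were low, and those of tumor #2 were the higher ones. The ratio of Syk to Zap70 TPM was 98.7 and 65.7 in tumor #1, against 11.8 and 11.6 in tumor #2.

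Btk, the kinase downstream of Syk, stood at 46.3 (Tom-) and 43.5 TPM (Tom+) in tumor #1, against 61.5 (Tom-) and 62.7 TPM (Tom+) in tumor #2. Its ratio to Syk was below 1 in both libraries of tumor #1 (0.738 and 0.758) and above 1 in both of tumor #2 (1.59 and 1.65).

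Because each tumor is 1 mouse, the difference between the tumors has no replicate check and no p-value is given. A gene was counted as past a limit when tumor #2 and tumor #1 differed by at least 1 in log2(TPM + 1), in the same direction, in both the Tom- pair and the Tom+ pair. Of the 7 members that reached 1 TPM in all 4 libraries, Blk was past it as higher in tumor #2, where 11.8% of the 11339 genes tested were, and Fyn as higher in tumor #1, where 3.1% were (14.9% in either direction). Fgr and Zap70 were past it as well, but they are not read against these shares, since only tumor #2 brought them into the set of genes tested. Fgr was closest to the limit, with a log2 difference of 1.02 in the Tom+ pair. With trimmed-mean scaling Fgr no longer passed, and with quantile normalization neither Fgr nor Zap70 did, while Blk and Fyn passed under every setting tried. The median difference of tumor #2 minus tumor #1 was 0.64 over the 9 members, 0.46 (the value of Btk) without Fgr and Zap70, and 0.20 over all genes tested, and trimmed-mean scaling moved the latter to -0.0043. Against that general shift, Lyn (mean of the 2 pairs 0.64), Btk (0.46) and Lck (0.88) were higher in tumor #2 by less than the limit. Csk (-0.05) was nearly level in TPM, which lies below the median of all genes tested. It moved to -0.28 with trimmed-mean scaling, and its sign turned under quantile normalization and under rescaling over protein-coding genes. Among the 7 members that reached 1 TPM in all 4 libraries, the libraries of the tumors did not overlap for all but Csk. This was so for 68.5% of the genes tested. For Fgr and Zap70 the filter made a lack of overlap certain. The make-up of the libraries also differed by tumor. Mitochondrial genes took 6.61% (Tom-) and 8.67% (Tom+) of TPM in tumor #1, against 14.4% (Tom-) and 15.6% (Tom+) in tumor #2, and pseudogenes took 31.3% (Tom-) and 30.3% (Tom+) against 25.4% (Tom-) and 23.4% (Tom+). Their part in the differences between the tumors was not tested.

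**Figure D3:**
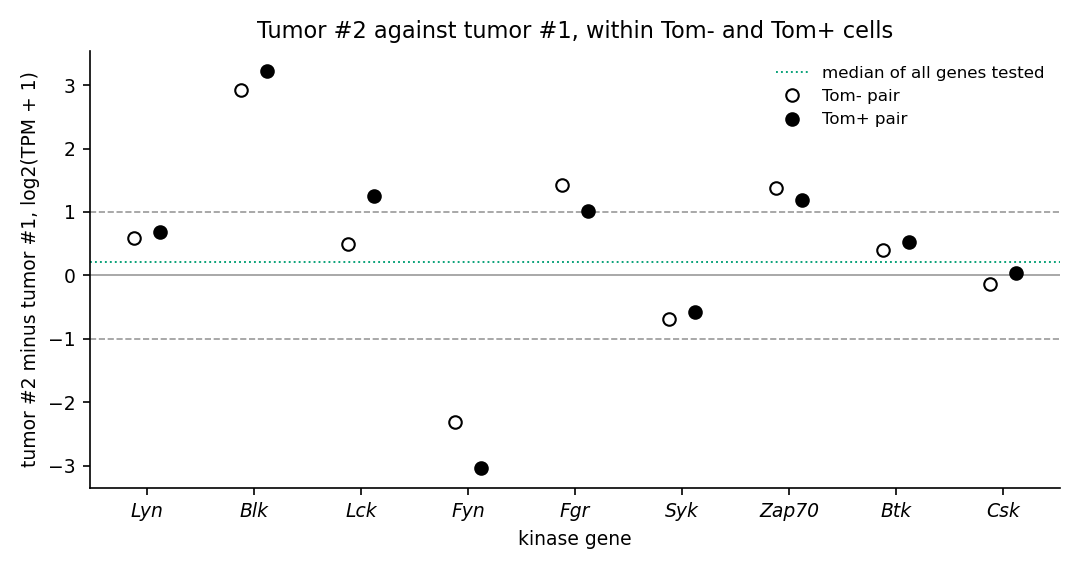
Difference of tumor #2 minus tumor #1 in log2(TPM + 1) for each kinase gene, in Tom- cells (open) and Tom+ cells (filled), with the limit of 1 in either direction (dashed) and the median of all genes tested, 0.20 (dotted). Blk lies at 2.92 and 3.23 and Fyn at -2.31 and -3.04.

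The sorted cells carried B cell transcripts in every library, with Ighm at 1255 TPM or more, while Fcer2a, which encodes CD23, stayed below 1 TPM. These genes differed between the tumors as well. The summed TPM of 10 B cell markers was 2471 (Tom-) and 2314 (Tom+) in tumor #1, against 5181 (Tom-) and 6049 (Tom+) in tumor #2. Ighm alone gave 1333.5 (Tom-) and 1255 (Tom+) of these sums in tumor #1, against 2191 (Tom-) and 3652 (Tom+) in tumor #2. In tumor #2 only Ighm and Bank1 of the list were higher in Tom+ than in Tom- cells. Ms4a1, which encodes CD20, stood at 32.9 (Tom-) and 20.5 TPM (Tom+) in tumor #1, against 263 (Tom-) and 209 TPM (Tom+) in tumor #2. In the separate comparison of Tom+ with Tom- cells, Ms4a1 was the one listed marker with an unadjusted p-value below 0.05, as 4.67% of the genes tested had. Its log2 fold change of Tom+ over Tom- was -0.49 (SE 0.16, limma adjusted p = 0.936). Of the 9 tested markers of this list, 6 were past the limit as higher in tumor #2 and 0 as higher in tumor #1. The shares of all genes tested were 11.8% and 3.1%. The difference in Blk thus ran in the same direction as most of this list. The difference in Fyn ran against it. Whether the level of B cell genes has a part in either was not tested. In bulk libraries fewer cells of a type and less RNA per cell cannot be told apart.

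Lck and Zap70 are T cell kinases in most settings, so T cell markers were set beside them. Of the 3 markers high enough to be tested, Cd2 was past the limit as higher in tumor #2, where 11.8% of all genes tested were. Cd3d and Thy1 were past it as well. Like Zap70, they reached 1 TPM in tumor #2 only, so the filter fixed their direction. Trbc1 and Trbc2 were listed at 0 in all 4 libraries, Cd3e was at 0.0687 TPM or less, and 9 of the 16 listed markers stayed below 1 TPM in every library. Cd3d had 7.77 (Tom-) and 2.09 TPM (Tom+) in tumor #2, against 0.329 (Tom-) and 0.0513 TPM (Tom+) in tumor #1. Thy1 had 2.18 (Tom-) and 3.63 TPM (Tom+) in tumor #2, against 0.418 (Tom-) and 0.648 TPM (Tom+) in tumor #1. In Tom+ cells of tumor #2, Cd8b1 reached 2.02 TPM, Lat 1.78 TPM and Cd3g 1.35 TPM. Trac ran the other way, with 0.767 (Tom-) and 1.09 TPM (Tom+) in tumor #1, and was listed at 0 in both libraries of tumor #2. Cd5, below 1 TPM throughout, was likewise listed at 0 in tumor #2 only. Cd2, which B cells also express, made up most of the list's sum, which was 17.9 (Tom-) and 13.3 TPM (Tom+) in tumor #1, against 66.6 (Tom-) and 67.0 TPM (Tom+) in tumor #2. NK cell markers summed to between 0.193 and 1.11 TPM, with 5 of 8 at 0 throughout. Beside Fgr, the 12 myeloid markers summed to 6.34 (Tom-) and 7.47 TPM (Tom+) in tumor #1, against 43.9 (Tom-) and 24.9 TPM (Tom+) in tumor #2, while Cd14 was listed at 0 in all libraries, Lyz2 did not exceed 1.41 TPM and Adgre1 did not exceed 0.115 TPM. The part of these other cell types in the values of Lck, Zap70 and Fgr was not tested.

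The comparison for which the libraries were made is that of Tom+ cells with Tom- cells of the same mouse. None of the 9 kinases passed the test. With limma's moderated test on log2(TPM + 1) with the tumor as a block and Benjamini-Hochberg adjustment, 0 members had an adjusted p-value below 0.05, against 0% of the 11339 genes tested, and 0 had an unadjusted p-value below 0.05, against 4.67% of the genes tested (2.64% lower and 2.04% higher in Tom+ cells). Adjusted p-values of the members lay between 0.936 and 0.989. With 2 pairs, an exact permutation test of a single gene has a smallest possible p of 0.5 (0.333 if the pairing is ignored). Tom+ and Tom- libraries overlapped for all 9 members, where 16.3% of the genes tested did not overlap.

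Blk had the largest estimate. It was lower in Tom+ cells of both tumors, by a ratio of Tom+ over Tom- of 0.661 in tumor #1 and 0.867 in tumor #2 (log2 fold change -0.36, SE 0.18, 95% interval -0.91 to 0.20, limma adjusted p = 0.936). Lyn was lower in Tom+ cells of both tumors by smaller ratios, 0.874 and 0.934 (log2 fold change -0.14, SE 0.15, interval -0.59 to 0.30). Syk was nearly level, at ratios of 0.914 and 0.985 (log2 fold change -0.07, SE 0.14, interval -0.51 to 0.36).

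The next largest estimates, those of Lck and Fyn, rested on tumor #1. The Lck ratio of Tom+ over Tom- was 0.590 in tumor #1 and 1.09 in tumor #2 (log2 fold change -0.27, SE 0.28, interval -1.13 to 0.60). The Fyn ratio was 1.54 in tumor #1 and 0.912 in tumor #2 (log2 fold change 0.25, SE 0.26, interval -0.55 to 1.04). In tumor #1, therefore, Fyn was higher and Lck and Blk were lower in Tom+ cells, a shift seen in the shares of the Src family sum, and tumor #2 did not repeat it for Fyn or Lck.

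The other members were close to 0. Btk had a log2 fold change of -0.03 (SE 0.14, interval -0.46 to 0.40), whose sign turned under 3 other scalings of the libraries, and Csk had -0.06 (SE 0.13, interval -0.45 to 0.32). Zap70 (0.10, SE 0.24, interval -0.62 to 0.82) and Fgr (-0.11, SE 0.26, interval -0.92 to 0.69) had wide intervals at their low level. The direction was the same in both tumors for 4 of the 9 members, against 51.2% of the genes tested. Lyn, Blk and Syk were lower in Tom+ cells of both, as 29.5% of the genes tested were, and Zap70 was higher in both, as 21.6% were. The median log2 fold change was -0.07 over the members and -0.03 over all genes tested. These intervals do not show that the kinases were equal in Tom+ and Tom- cells. For Csk, the member with the narrowest interval, they leave room for a difference of up to 0.45 on the log2 scale.

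**Figure D4:**
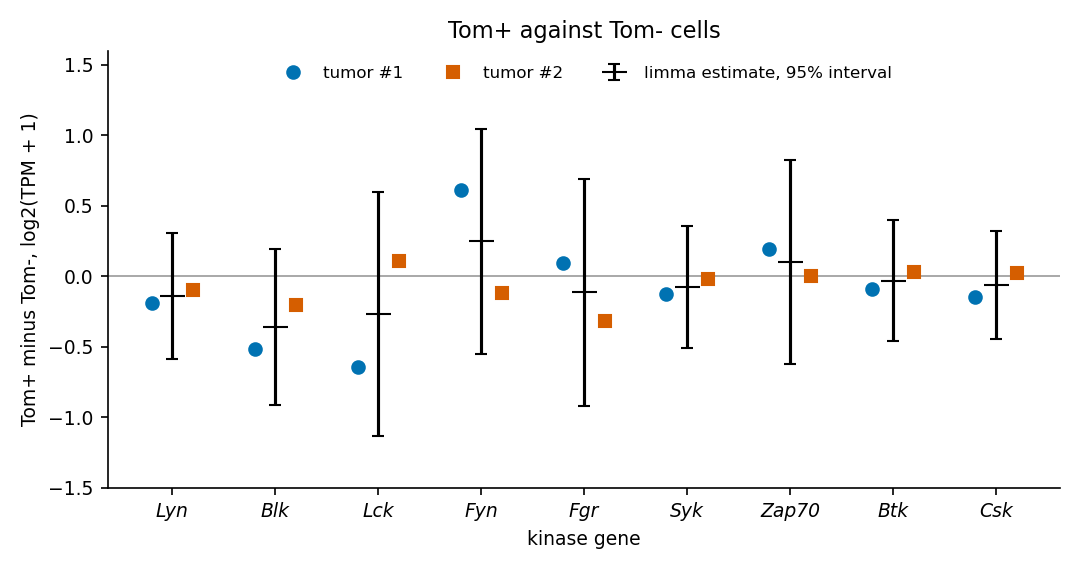
Tom+ minus Tom- difference in log2(TPM + 1) for each kinase gene in tumor #1 (circles) and tumor #2 (squares), with limma's estimate (horizontal mark) and its 95% interval (bars). All 9 intervals include 0, and the signs of the tumors differ for Lck, Fyn, Fgr, Btk and Csk.

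The remaining Src, Csk and Tec family genes were mostly silent. Of 10 listed, 3 were high enough to be tested, and 6 stayed below 1 TPM in every library, among them Src, Bmx and Txk, with Frk listed at 0 throughout. Yes1, a broadly expressed Src family gene, stood at 0.578 (Tom-) and 1.34 TPM (Tom+) in tumor #1, against 5.38 (Tom-) and 4.88 TPM (Tom+) in tumor #2, and was past the limit as higher in tumor #2. Tec, a relative of Btk, stood at 6.53 (Tom-) and 13.3 TPM (Tom+) in tumor #1, against 12.9 (Tom-) and 13.8 TPM (Tom+) in tumor #2. Its difference between Tom+ and Tom- cells, the largest of this list, came from tumor #1 (log2 fold change 0.50, SE 0.29, limma adjusted p = 0.936).

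Genes that act around the kinases gave 0 calls at an adjusted p-value of 0.05 in each list. For the counts that follow, 29.5% of all genes tested were lower and 21.6% higher in Tom+ cells of both tumors, and 11.8% were past the limit as higher in tumor #2. Among 9 tested receptors and coreceptors, 4 were lower and 2 higher in Tom+ cells of both tumors, with a median log2 fold change of -0.19. The largest was Cd22, an inhibitory coreceptor that Lyn phosphorylates (-0.30, SE 0.16, limma adjusted p = 0.936). Between the tumors, 7 of these 9, of which Cd79a, Cd79b and Cd22 are also among the B cell markers above, were past the limit as higher in tumor #2. They included Pirb, which reached 1 TPM in tumor #2 only, so the filter fixed its direction. Both signaling chains of the BCR were among the 7. Cd79a stood at 147 (Tom-) and 120.4 TPM (Tom+) in tumor #1, against 346 (Tom-) and 306 TPM (Tom+) in tumor #2. Cd79b stood at 157 (Tom-) and 139 TPM (Tom+) in tumor #1, against 437 (Tom-) and 351 TPM (Tom+) in tumor #2.

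Among 13 tested phosphatases and other negative regulators, 8 were lower and 1 was higher in Tom+ cells of both tumors, with a median log2 fold change of -0.21. Ptprc, which encodes CD45, the phosphatase that opposes Csk, stood at 58.1 (Tom-) and 47.8 TPM (Tom+) in tumor #1, against 90.6 (Tom-) and 67.5 TPM (Tom+) in tumor #2 (log2 fold change -0.35, SE 0.14, limma adjusted p = 0.936). Ptpn6, which encodes SHP-1, was the 1 member of the list with an unadjusted p-value below 0.05 (log2 fold change -0.49, SE 0.14, limma adjusted p = 0.936). Dok1, an inhibitory adaptor, had the largest difference, -0.85 (SE 0.38), mainly from tumor #2. Between the tumors only Sla, which encodes an adaptor that lowers antigen receptor levels, was past the limit, with 2.77 (Tom-) and 2.41 TPM (Tom+) in tumor #1, against 26.9 (Tom-) and 25.7 TPM (Tom+) in tumor #2.

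Among 16 tested adaptors and substrates, 9 were lower and 0 higher in Tom+ cells of both tumors, with a median log2 fold change of -0.10. Grb2, an adaptor that links receptors to Ras, was the one with an unadjusted p-value below 0.05, with 85.3 (Tom-) and 63.6 TPM (Tom+) in tumor #1, against 95.2 (Tom-) and 70.2 TPM (Tom+) in tumor #2 (log2 fold change -0.43, SE 0.13, limma adjusted p = 0.936). Between the tumors 7 of the 16 were past the limit, all higher in tumor #2. They included Blnk, the adaptor between Syk and Btk, together with Vav2, Bank1, Dapp1, Prkcb and Lat2. Plcg2, the substrate of Btk, was nearly level between the tumors, with 30.5 (Tom-) and 25.5 TPM (Tom+) in tumor #1, against 32.9 (Tom-) and 24.3 TPM (Tom+) in tumor #2.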

How the data were processed

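Per the labels and the study's methods, polyA RNA was sequenced as single reads, base calling used CASAVA 1.8, reads were trimmed with Cutadapt, and the authors quantified them with Salmon 1.9 on the GRCm38 transcriptome. The authors deposited TPM per gene, which sums to 1000000 per library. How transcripts were summed to genes is not given in the sources used here. The authors' paired edgeR test needs counts and was not run.

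Symbols, positions and coding ends came from GENCODE M21 (GRCm38), which held 34652 of the 34866 identifiers. From the deposited TPM, log2(TPM + 1) was fitted with limma 3.58.1 (R 4.3.3) for the 11339 genes that reached 1 TPM in 2 or more libraries, with Tom status and tumor as terms and a variance trend (1 residual and 2.21 prior degrees of freedom). Samples with the same number come from the same mouse, and across genes their deviations from the group means correlated (r = 0.626). Intervals are 95%. The code was tested on simulated data. Python 3.11.15, pandas 2.3.3 and matplotlib 3.10.9 were used for tables and plots. Immunoglobulin genes took 5.35% to 9.76% of TPM per library.

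The members and gene lists were chosen with earlier results of these data known. Named genes were all members, in each list those with an unadjusted p-value below 0.05 and the one with the largest change, and the genes closest to each member whose log2(TPM + 1) spanned at least 1. Other genes named from the lists were chosen after their values were seen. Alternatives are given in the closing section. Some genes of the lists are not reported here by name.

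An exon of Gm26857 on the opposite strand shares 6.09% of the exon bases of Lyn, and the sources used here do not say whether strand was used.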

Additional observations from a re-analysis of the deposited data

How the results depend on the processing

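The count of 0 members and 0 genes below an adjusted p-value of 0.05 in the Tom comparison held without the replicate block (0 in both cases), with pseudocounts of 0.1 and 0.5, without a filter on low TPM, at a mean TPM of at least 5, with trimmed-mean scaling, quantile normalization, rescaling over nuclear protein-coding genes and without the variance trend, as did the count of 0 members at an unadjusted p-value below 0.05. Adjusted p-values of the members lay between 0.913 and 1 over these settings. The block changed no call. The number of members past the tumor limit went from 4 to 2 at a mean TPM of at least 5, which leaves out Fgr and Zap70, and to 2 with quantile normalization, which lowered both below the limit. The Tom difference of Btk turned to 0.0070 with trimmed-mean scaling, 0.012 with quantile normalization and 0.026 with protein-coding genes rescaled. The tumor difference of Csk turned to 0.021 and 0.036 under quantile normalization and that rescaling, and moved to -0.28 with trimmed-mean scaling. Leaving out 1 tumor gives the value of the other, with no test. It ranged from -0.64 to 0.11 for Lck, from -0.12 to 0.61 for Fyn, from -0.32 to 0.094 for Fgr, from -0.089 to 0.029 for Btk and from -0.14 to 0.022 for Csk, and kept its sign for Lyn, Blk, Syk and Zap70. With 1 mouse per tumor and no read numbers, neither counting error nor the spread between tumors of one kind can be estimated.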

Other observations

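The genes closest in pattern to 5 of the kinases were read from the Euclidean distance of log2(TPM + 1), centered on each gene's mean, over the 4 libraries and 10078 protein-coding genes. Over so few libraries, 2 of them from each mouse, closeness mostly says that genes share the difference between the tumors. Closest to Blk were Lat2, which encodes the adaptor NTAL, with 9.23 (Tom-) and 6.44 TPM (Tom+) in tumor #1, against 83.1 (Tom-) and 71.0 TPM (Tom+) in tumor #2 (distance 0.095), and Ms4a1 (distance 0.14). The pattern of Fyn was rarer, with 0 genes within a distance of 0.2. The nearest was Tanc1, with 6.05 (Tom-) and 8.07 TPM (Tom+) in tumor #1, against 0.269 (Tom-) and 0.304 TPM (Tom+) in tumor #2 (distance 0.21), followed by Gm3636, which was listed at 0 in tumor #2 (distance 0.25). Within the same distance there were 4 genes for Blk, 26 for Lck, 74 for Fgr and 97 for Zap70. The closest were Pctp and Pafah1b1 for Lck, Cpne8 and Gnpda1 for Fgr, and Helz2 and Pigb for Zap70.

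The sum of the plasma cell markers stood apart in 1 library, Tom+ cells of tumor #2, through Jchain. The other markers were not alike. Irf4 was also highest there (29.4 TPM), whereas Derl3 was highest in Tom- cells of tumor #1 (5.39 TPM). Xbp1 was higher in both libraries of tumor #2, and Sdc1 in both libraries of tumor #1. The 6 markers summed to 35.6 (Tom-) and 36.3 TPM (Tom+) in tumor #1, against 37.5 (Tom-) and 263 TPM (Tom+) in tumor #2, and Jchain alone gave 209 TPM of the last value. In that library none of the 9 kinases differed from Tom- cells of the same tumor by more than 0.32 on the log2(TPM + 1) scale, the value of Fgr. B cell precursor markers summed to between 13.3 and 16.9 TPM, but their members differed. Il7r had 14.1 (Tom-) and 13.5 TPM (Tom+) in tumor #1, against 4.39 (Tom-) and 9.43 TPM (Tom+) in tumor #2. Rag2 had 0.196 (Tom-) and 0.295 TPM (Tom+) in tumor #1, against 4.43 (Tom-) and 2.68 TPM (Tom+) in tumor #2. It was past the tumor limit, but it reached 1 TPM in tumor #2 only, so the filter fixed its direction. Rag1 had 0.613 (Tom-) and 1.17 TPM (Tom+) in tumor #1, against 3.61 (Tom-) and 2.81 TPM (Tom+) in tumor #2. Kit and Igll1 were listed at 0 in all libraries.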
